A study of Mus musculus with 8 samples.

Results

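Of the 1802 genes in the comparison of ABCA1 knockout with control retina, 41 were genes of cell adhesion and axon guidance. They were chosen by symbol alone, as the listed genes whose names begin like those of the cadherins, protocadherins, contactins, neurexins, neuroligins, semaphorins, plexins, Eph receptors, ephrins, Slits, Robos, netrins, UNC5 receptors, teneurins and related families. One of them, Lrrc40, matches by spelling only and belongs to no such family. The libraries were made from dissociated retinal tissue of mice, 3 labelled WT with the genotype control and 5 labelled KO with the genotype ABCA1KO, as droplet libraries read from the 3′ end of transcripts. ABCA1 is a transporter that passes cholesterol and phospholipid out of cells. The labels give no strain, age or sex, and do not say which part of the gene was deleted, in which cells, or whether each library came from its own animal.

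Cell adhesion molecules hold neurons together and let them recognise each other. In the retina they help to steer the processes of bipolar, amacrine and ganglion cells to the right layers of the inner plexiform layer, to space cells of a type apart, and to align both sides of a synapse. Guidance cues such as semaphorins, Slits, ephrins and netrins act on plexins, Robos, Eph receptors and UNC5 receptors of growing axons, and many of these genes stay active in the adult tissue.

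Each value below is taken from the authors' deposited table. All cells of a genotype are pooled in it, with no value for single libraries. Its log difference is KO minus WT on a scale read as natural log. The values appear to be batch-integrated, so a log difference is no fold change of expression, and a share of cells above 0 is not a share of cells in which a transcript was detected. A gene was called where the adjusted p in the authors' deposited table was under 0.05. The direction of a call is the sign of the log difference alone. The test behind the adjusted p is not stated, so a small adjusted p need not bear on that direction. Differences could not be set against the spread between libraries, and the depth per library and the numbers of cells are unknown here. In pooled cells, more cells of a type and more RNA per cell cannot be told apart.

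Most of the adhesion and guidance genes were higher in KO. Of the 41, the authors' deposited table called 35 higher and 4 lower, and 2 were not called. Over all 1802 listed genes the authors' deposited table called 93.2%, with 69.1% higher and 24.1% lower, against 85.4% and 9.76% of the 41. Read against the median gene of the table instead of 0, 26 were higher and 13 lower. The share of higher calls among called genes so went from 89.7% to 66.7%, while it went from 74.2% to 49.2% over all listed genes. This reading kept the authors' adjusted p, which does not test a difference from the median gene. The median log difference of the 41 genes was 0.0185 in the authors' deposited table, against 0.01004 over all listed genes, and their quartiles were 0.00519 and 0.0324. The 41 genes ran from -0.0195 for Cdhr1 to 0.168 for Nrxn3 in the authors' deposited table. Of the 41, 0 lay under -0.05 and 5 (12.2%) above 0.05. Of all listed genes 10.4% lay above 0.05 and 2.89% under -0.05. The genes are not independent replicates, and no test was made of the list against the other genes.

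**Figure D1:**
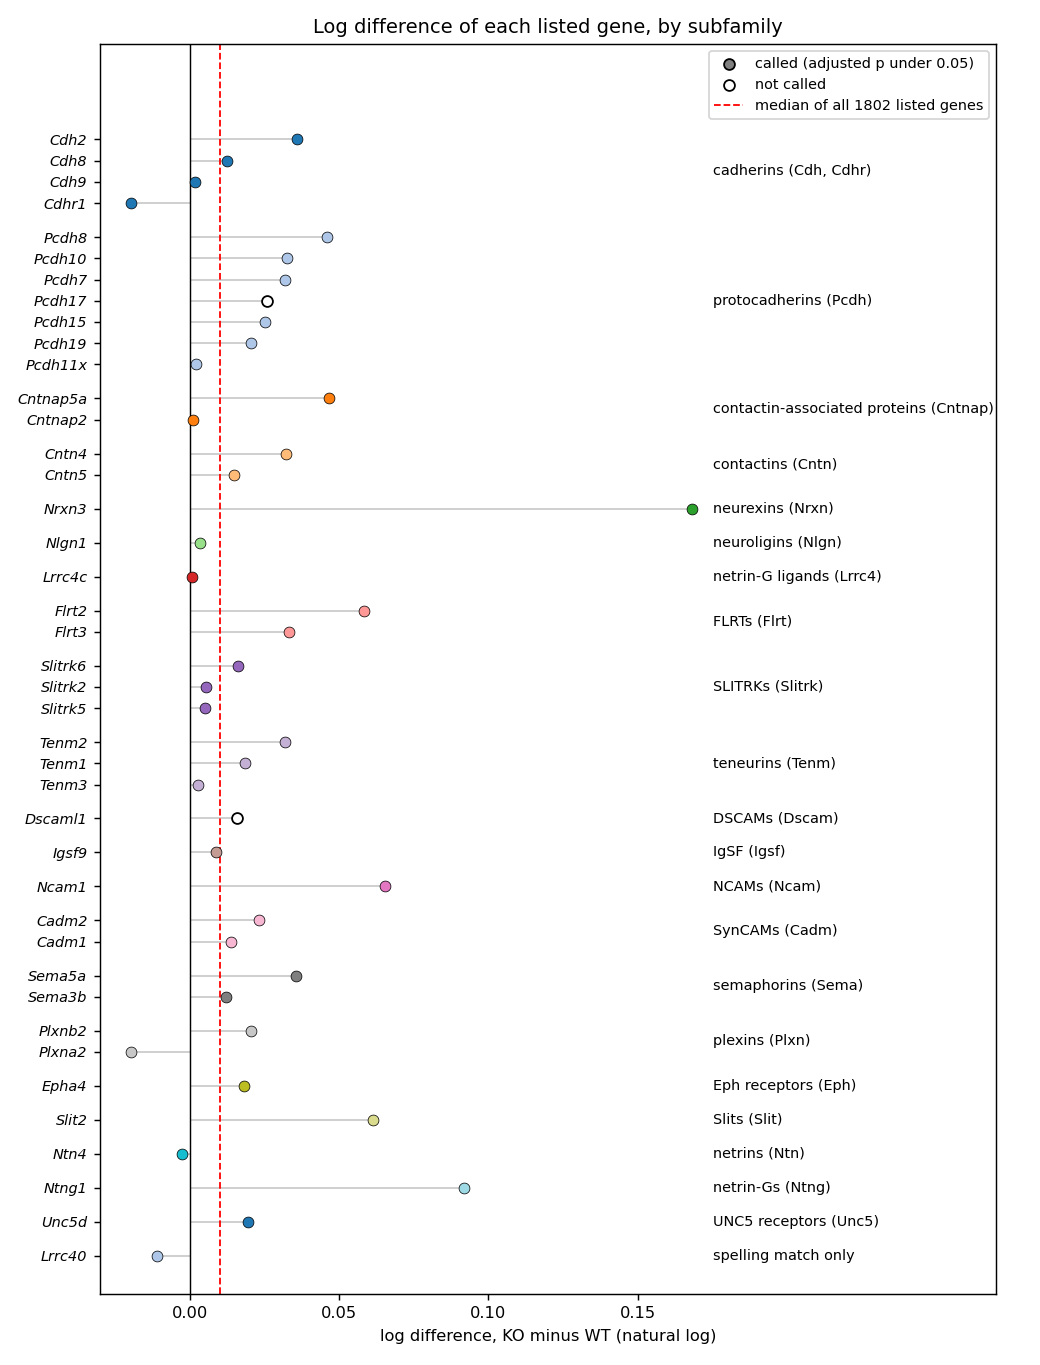
Each point is 1 of the 41 listed genes, placed by its log difference (KO minus WT, natural log) and grouped by subfamily; filled points were called and open points (Pcdh17, Dscaml1) were not. The dashed line is the median of all listed genes, 0.01004; Nrxn3 at 0.168 stands apart, and Cdhr1, Plxna2, Lrrc40 and Ntn4 lie under 0.

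The neurexin Nrxn3 had the highest value of the group. Neurexins sit on the presynaptic side and bind neuroligins and other partners across the synaptic cleft. Nrxn3, at chr12:88722876-90334935 on the plus strand of GRCm38, exceeded 0 in 65.6% of KO and 42.5% of WT cells, a log difference of 0.168 and an adjusted p of 2.02e-67 in the authors' deposited table. It ranked at 18 from the highest of the 1802 genes. Nlgn1, a neuroligin of excitatory synapses, stood at 47.6% of KO and 34.8% of WT cells with a log difference of 0.00348 (adjusted p = 2.89e-11 in the authors' deposited table). Both were called higher, but Nlgn1 ranked at 1165 and had the smallest difference in share of all 41 genes, 12.8 percentage points. Nlgn2, Nlgn3 and the 4 LRRTM genes, which encode further neurexin ligands, were not listed. A gene that is not listed was not shown to be unchanged.

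Netrin-G1 followed, and its known receptor did not share its size. Ntng1 encodes a membrane-anchored relative of the netrins, and Lrrc4c encodes the netrin-G ligand that binds it. Ntng1, at chr3:109780040-110144011 on the minus strand, was above 0 in 69.0% of KO and 42.7% of WT cells, with a log difference of 0.0917 and an adjusted p of 2.12e-194 in the authors' deposited table. For Lrrc4c the shares were 57.8% and 33.1%, and the log difference was 0.000825 with an adjusted p of 1.94e-186 in the authors' deposited table. The difference in share was thus nearly the same for both, 26.3 and 24.7 percentage points, while their ranks by log difference were 55 and 1305.

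Among cues that guide axons, the Slit and semaphorin genes listed were higher and the secreted netrin was slightly lower. Of all listed genes 69.1% were called higher and 24.1% lower. Slit2, a repellent that acts through Robo receptors, exceeded 0 in 66.0% of KO and 39.9% of WT cells, with a log difference of 0.0615 (adjusted p = 2.74e-112 in the authors' deposited table). None of the 4 Robo genes was listed. Sema5a encodes a transmembrane semaphorin that keeps neurites within the inner plexiform layer. It was above 0 in 74.5% of KO and 45.8% of WT cells, with a log difference of 0.0355 and an adjusted p listed as 0 in the authors' deposited table. Sema3b, a secreted semaphorin, had shares of 63.6% and 43.8% and a log difference of 0.0121 (adjusted p = 4.89e-136 in the authors' deposited table). Ntn4 encodes a netrin of basement membranes, and was called lower with shares of 54.1% and 37.2%, a log difference of -0.00260 and an adjusted p of 6.35e-20 in the authors' deposited table. The share of cells above 0 was thus larger in KO also for Ntn4, although its log difference was under 0. The 8 ephrin genes and both neuropilins were not listed.

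Receptors of guidance cues went both ways, as did listed genes in general. Of the 9 listed genes of cues and receptors, netrin-G1 among them, 7 (77.8%) were called higher and 2 (22.2%) lower. These shares were near the 69.1% and 24.1% of all listed genes. Plxna2, a plexin that binds transmembrane semaphorins, was called lower, with values above 0 in 56.9% of KO and 39.6% of WT cells, a log difference of -0.0195 and an adjusted p of 4.98e-09 in the authors' deposited table. Plxnb2, a receptor of class IV semaphorins, was called higher with shares of 62.8% and 45.7% and a log difference of 0.0204 (adjusted p = 1.12e-17 in the authors' deposited table). The plexins listed therefore lay at about the same distance from 0 on opposite sides. Read against the median gene of the table, Plxna2 stood at -0.0295 and Plxnb2 at 0.0103. Epha4, an Eph receptor that binds ephrins of both classes, had shares of 54.6% and 32.5% and a log difference of 0.0181 (adjusted p = 6.57e-22 in the authors' deposited table). Unc5d, a receptor of netrins and of FLRT proteins, had shares of 55.0% and 35.4% and a log difference of 0.0193 (adjusted p = 1.16e-32 in the authors' deposited table). Epha4 was the only one of 14 annotated Eph receptor genes and Unc5d the only one of 4 UNC5 receptor genes in the list.

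To show the promoters behind both ends of the group, the sequences around the start sites of the 2 highest and the 2 lowest genes with a single start in RefSeq's table (GRCm38.p6) are given 5′ to 3′, 300 bases each, with CG dinucleotides in capitals. They lie at chr3:110143423-110143722 on the minus strand for Ntng1, chr5:47982905-47983204 on the plus strand for Slit2, chr1:194619579-194619878 on the plus strand for Plxna2 and chr14:37098298-37098597 on the minus strand for Cdhr1.
Ntng1: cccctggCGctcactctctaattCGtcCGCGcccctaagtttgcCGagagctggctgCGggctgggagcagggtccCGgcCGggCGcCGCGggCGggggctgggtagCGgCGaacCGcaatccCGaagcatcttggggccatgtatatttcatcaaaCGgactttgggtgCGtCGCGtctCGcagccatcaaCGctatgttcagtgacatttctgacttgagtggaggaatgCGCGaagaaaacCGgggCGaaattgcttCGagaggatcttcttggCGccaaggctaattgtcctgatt
Slit2: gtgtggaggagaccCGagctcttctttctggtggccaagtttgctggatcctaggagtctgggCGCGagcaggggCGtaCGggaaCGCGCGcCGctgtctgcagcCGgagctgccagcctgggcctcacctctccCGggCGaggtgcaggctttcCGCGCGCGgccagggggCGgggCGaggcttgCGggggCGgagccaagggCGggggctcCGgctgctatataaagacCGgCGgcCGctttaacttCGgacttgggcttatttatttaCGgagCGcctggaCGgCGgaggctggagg
Plxna2: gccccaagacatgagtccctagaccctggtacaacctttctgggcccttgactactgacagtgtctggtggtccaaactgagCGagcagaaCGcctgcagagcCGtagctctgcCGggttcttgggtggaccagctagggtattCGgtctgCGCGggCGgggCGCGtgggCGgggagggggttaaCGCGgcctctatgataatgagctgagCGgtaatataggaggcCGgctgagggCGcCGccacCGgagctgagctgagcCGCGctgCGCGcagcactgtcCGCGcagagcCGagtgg
Cdhr1: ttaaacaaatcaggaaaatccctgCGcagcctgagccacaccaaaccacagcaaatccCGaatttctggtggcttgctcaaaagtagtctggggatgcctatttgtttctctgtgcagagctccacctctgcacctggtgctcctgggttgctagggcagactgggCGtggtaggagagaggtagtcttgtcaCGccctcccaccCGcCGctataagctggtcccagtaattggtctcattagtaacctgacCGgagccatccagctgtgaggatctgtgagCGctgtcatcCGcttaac
The stretches hold 28 CG dinucleotides for Ntng1, 30 for Slit2, 25 for Plxna2 and 9 for Cdhr1, against a median of 7 over all 32851 promoters of the table. Over 41 promoters of the 33 adhesion and guidance genes that the table holds, the median was 14. The TATA box letters TATAAA, searched on both strands, were in 4 of these 41 promoters (9.76%), among them that of Slit2, and in 13.6% of all promoters. TAATCC, the core bound by the photoreceptor factors CRX and OTX2, was in 2 of the 41 (4.88%), in Cntnap2 and Lrrc40, and in 7.06% of all. The E-box letters CACGTG were in 4 of the 41 (9.76%), in Cadm2, Flrt2, Igsf9 and Slitrk6, and in 7.15% of all promoters. A match of letters is no binding site, and promoters near each other in the table can overlap.

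The 4 listed cadherins ran from the lowest value of the group to one above its upper quartile. Classical cadherins join cells through calcium-dependent contacts between like molecules. Cdh2, N-cadherin, was above 0 in 53.9% of KO and 31.5% of WT cells, with a log difference of 0.0360 and an adjusted p of 4.75e-08 in the authors' deposited table. Cdh8 and Cdh9 mark types of bipolar cells and steer their arbors. Cdh8 had shares of 60.7% and 43.4% and a log difference of 0.0124 (adjusted p = 9.70e-35 in the authors' deposited table). Cdh9 had shares of 52.0% and 36.3% and a log difference of 0.00185 (adjusted p = 1.32e-15 in the authors' deposited table).

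Cdhr1 was the lowest of the 41 genes. It encodes a cadherin at the base of photoreceptor outer segments, where new discs form. Cdhr1, at chr14:37077857-37098347 on the minus strand, had -0.0195 as its log difference with an adjusted p of 5.08e-33, in the authors' deposited table, and was above 0 in 73.9% of KO and 51.0% of WT cells. Its WT share was the largest of the 41 genes. The 6 listed rod markers of 8 looked for were all called lower too, beside 24.1% of all listed genes. They ran from -0.192 for Sag to -0.0494 for Pde6b in the authors' deposited table. The value of Cdhr1 was therefore closer to 0 than that of any listed rod marker. The part of rod content in the value of Cdhr1 was not tested.

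Protocadherins had 6 of 7 listed genes called higher, beside 69.1% of all listed genes. These relatives of the cadherins mediate selective contacts between neurons, and the listed ones all lie outside the large gene clusters. Pcdh8 was highest, with values above 0 in 69.8% of KO and 42.8% of WT cells, a log difference of 0.0460 and an adjusted p of 7.66e-192 in the authors' deposited table. Pcdh10, like Pcdh8 a delta protocadherin, had shares of 60.9% and 37.6% and a log difference of 0.0324 (adjusted p = 2.08e-70 in the authors' deposited table). Pcdh7 had shares of 64.8% and 36.0% and a log difference of 0.0319 (adjusted p = 7.62e-178 in the authors' deposited table). Pcdh10 and Pcdh7 differed little in log difference and lay below Pcdh8, while Pcdh7 had the largest difference in share of the 3, 28.8 percentage points.

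Pcdh15, Pcdh17, Pcdh19 and Pcdh11x were nearer to the median gene. Pcdh15, whose product links the stereocilia of hair cells and is found at photoreceptors, had shares of 46.4% and 32.1% and a log difference of 0.0251 (adjusted p = 1.29e-85 in the authors' deposited table). Pcdh17 had a log difference of 0.0258, shares of 50.0% and 33.0%, and an adjusted p of 0.0625 in the authors' deposited table, and so was not called. Pcdh15 and Pcdh17 thus had nearly the same log difference and fell on either side of the threshold. The X-linked Pcdh19 had shares of 54.2% and 32.1% and a log difference of 0.0206 (adjusted p = 4.09e-62 in the authors' deposited table). Pcdh11x, also X-linked, had the smallest WT share of all 41 genes. It was above 0 in 36.5% of KO and 14.6% of WT cells, a ratio of 2.50, with a log difference of 0.00210 (adjusted p = 2.97e-54 in the authors' deposited table). Of 12 annotated protocadherin genes outside the clusters 7 were listed, against 0 of 56 clustered ones.

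The listed contactins (2 of 6 annotated) and contactin-associated proteins (2 of 7) were called higher, as were 69.1% of all listed genes. Contactins are membrane-anchored immunoglobulin proteins of axons, and Cntn4 has been tied to the targeting of ganglion cell axons. Cntn4 was above 0 in 53.1% of KO and 26.6% of WT cells, with a log difference of 0.0324 (adjusted p = 2.53e-35 in the authors' deposited table). Cntn5 had shares of 70.7% and 49.4% and a log difference of 0.0150 (adjusted p = 8.86e-139 in the authors' deposited table). Cntnap5a, a contactin-associated protein of the neurexin superfamily, had the largest difference in share of the 41 genes. It was above 0 in 76.5% of KO and 42.3% of WT cells, 34.2 percentage points apart, with a log difference of 0.0465 and an adjusted p listed as 0 in the authors' deposited table. Cntnap2, which clusters potassium channels on axons, had shares of 58.2% and 37.0% and a log difference of 0.00120 (adjusted p = 5.82e-07 in the authors' deposited table). Cntnap2 spans 2245 kb of chromosome 6 and is the longest of the 41 genes.

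Among leucine-rich repeat proteins that organise synapses, the listed FLRT and SLITRK genes and Lrrc4c were called higher, with the FLRT genes in front. Over all listed genes 69.1% were called higher. FLRT proteins bind UNC5 receptors and latrophilins. Flrt2 was above 0 in 60.5% of KO and 43.7% of WT cells, with a log difference of 0.0584 (adjusted p = 1.17e-11 in the authors' deposited table). Flrt3 had shares of 64.8% and 39.9% and a log difference of 0.0331 (adjusted p = 9.08e-157 in the authors' deposited table). Flrt2 was thus the higher by log difference, whereas the difference in share was larger for Flrt3, 24.9 against 16.8 percentage points. Their receptor gene Unc5d, at 0.0193, lay below both.

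The SLITRK genes, whose products bind receptor tyrosine phosphatases across the synapse, lay near the median gene. Slitrk6 had shares of 58.2% and 42.3% and a log difference of 0.0160 (adjusted p = 6.63e-10 in the authors' deposited table). Slitrk2 had shares of 44.1% and 30.8% and a log difference of 0.00553 (adjusted p = 5.08e-14 in the authors' deposited table). Slitrk5 had shares of 51.2% and 33.7% and a log difference of 0.00519 (adjusted p = 2.72e-46 in the authors' deposited table). Lrrc40, the gene that matched by spelling only, was called lower with shares of 50.7% and 35.1%, a log difference of -0.0110 and an adjusted p of 0.00456 in the authors' deposited table.

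Teneurins, large transmembrane proteins that pair with latrophilins and with each other, had 3 of 4 genes listed, and these were called higher. The share called higher over all listed genes was 69.1%. Tenm2 was above 0 in 51.8% of KO and 36.5% of WT cells, with a log difference of 0.0318 (adjusted p = 4.26e-12 in the authors' deposited table). Tenm1 had shares of 53.9% and 32.8% and a log difference of 0.0185 (adjusted p = 2.55e-65 in the authors' deposited table). Tenm3, which acts in the wiring of ganglion cells, had shares of 59.3% and 34.8% and a log difference of 0.00281 (adjusted p = 6.37e-183 in the authors' deposited table). By log difference the order was Tenm2, Tenm1, Tenm3, and by difference in share it was the opposite, with 15.3, 21.1 and 24.5 percentage points.

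In the immunoglobulin superfamily, Ncam1 stood highest. Ncam1, the neural cell adhesion molecule, at chr9:49502136-49798925 on the minus strand, was above 0 in 68.5% of KO and 49.7% of WT cells, with a log difference of 0.0653 (adjusted p = 6.41e-10 in the authors' deposited table). Cadm1 and Cadm2 encode synaptic adhesion proteins that bind each other. Cadm2 had shares of 57.4% and 41.0% and a log difference of 0.0233 (adjusted p = 0.00265 in the authors' deposited table). Cadm1 had shares of 63.6% and 49.2% and a log difference of 0.0137 (adjusted p = 0.0186 in the authors' deposited table), and its ratio of shares, 1.29, was the smallest of the 41. Igsf9, a regulator of dendrites, had shares of 57.1% and 35.3% and a log difference of 0.00885 (adjusted p = 2.59e-12 in the authors' deposited table). Dscaml1, which spaces cells of the rod pathway, was not called, with shares of 59.2% and 38.7%, a log difference of 0.0160 and an adjusted p of 0.216 in the authors' deposited table. Dscam and both sidekick genes, which take part in the same layering of the inner retina, were not listed.

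**Figure D2:**
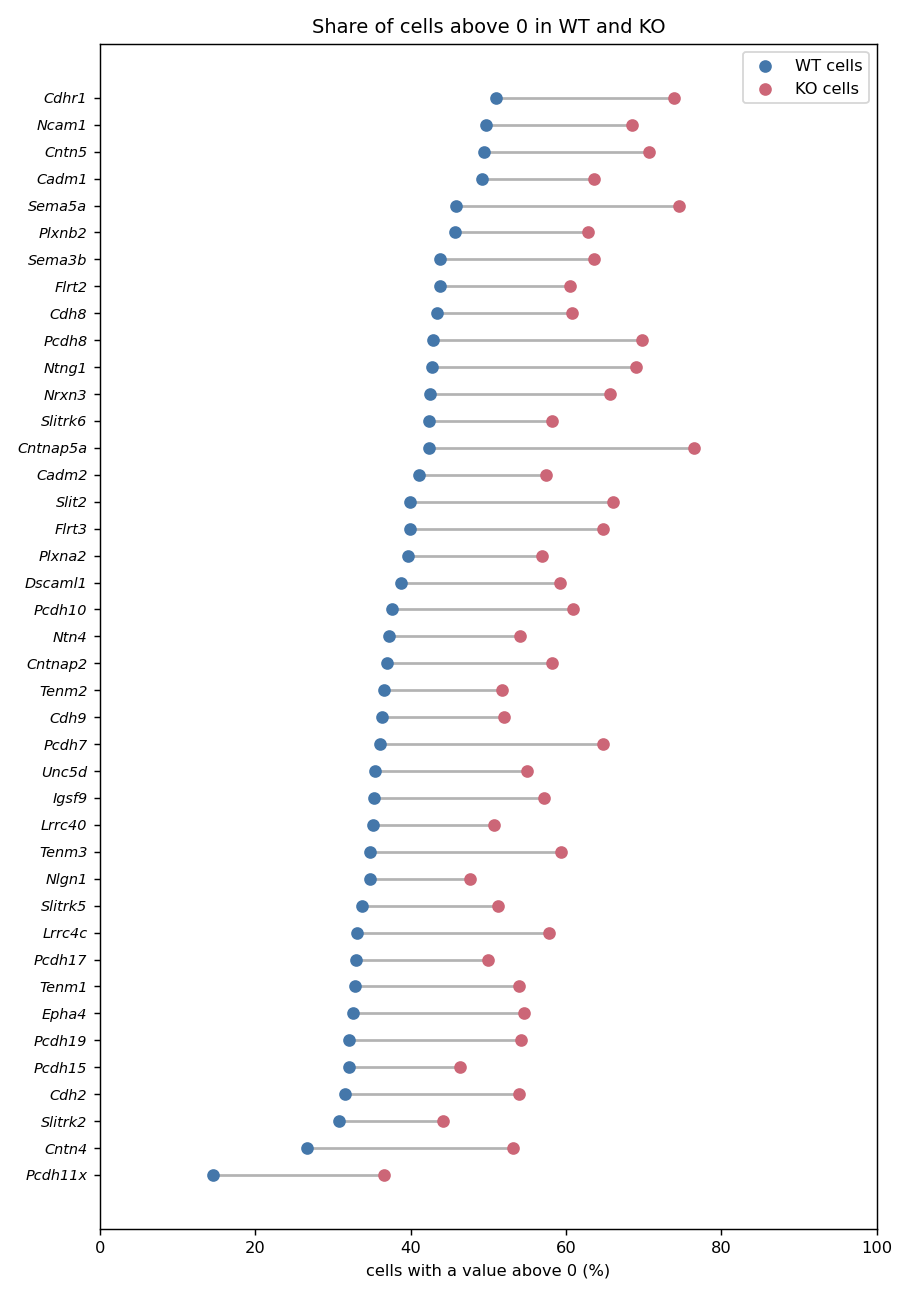
For each of the 41 genes the share of cells with a value above 0 (percent) is plotted in WT cells (blue) and KO cells (red), ordered by the WT share. The KO point lies to the right of the WT point for all 41, from 12.8 percentage points for Nlgn1 to 34.2 for Cntnap5a.

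The share of cells above 0 was larger in KO for all 41 genes, as it was for 1764 of all 1802 listed genes in the authors' deposited table. The median difference was 21.1 percentage points for the 41 genes and 20.8 for all listed genes. Their WT shares ran from 14.6% to 51.0% and their KO shares from 36.5% to 76.5% in the authors' deposited table. All 4 genes called lower, Cdhr1, Plxna2, Lrrc40 and Ntn4, had larger shares in KO, by 22.9, 17.3, 15.6 and 16.9 percentage points. Whether their small adjusted p bears on the direction called is therefore not known. Across the 41 genes the log difference and the difference in share went together loosely (Spearman's rho 0.403, Pearson's r 0.339), and across the other 1761 listed genes likewise (rho 0.270, r 0.285). Both measures come from the same pooled cells, and genes are not independent replicates.

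**Figure D3:**
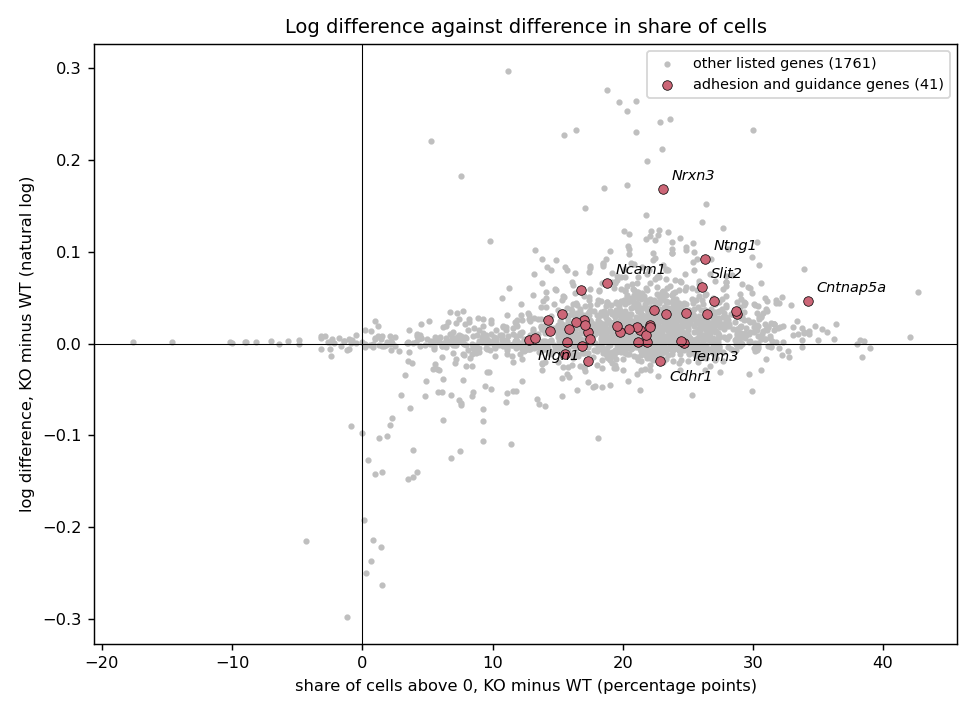
The difference in the share of cells above 0 (x axis, percentage points) is set against the log difference (y axis, natural log) for the 41 genes (red) and the other 1761 listed genes (grey). Nrxn3 is high at a middling difference in share of 23.1 points, Cntnap5a has the largest difference in share at a log difference of 0.0465, and Tenm3 has 24.5 points at a log difference near 0.

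The adhesion and guidance genes were long. In GENCODE's annotation of GRCm38 their median span was 325 kb, against 31.7 kb for the 1743 other listed genes that matched 1 annotated gene, and 28 of the 41 (68.3%) spanned over 100 kb, against 23.2%. They lay on 15 chromosomes, with 4 of the 41 (9.76%) on the X chromosome (Pcdh11x, Pcdh19, Slitrk2 and Tenm1). Of the 1743 other listed genes 2.87% were on the X chromosome, and the labels do not give the sex. The 21 genes over 300 kb had a median log difference of 0.0193, and the 112 other listed genes over 300 kb had 0.0190. The 6 genes under 20 kb (Pcdh8, Slitrk2, Slitrk5, Slitrk6, Sema3b and Igsf9) had a median of 0.0105, against 0.00559 for 696 other listed genes of that span. Across the 41 genes span and log difference had a Spearman's rho of 0.102, and across the other genes of 0.165.

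The table held a part of most families. GENCODE's annotation has 236 protein-coding symbols that match the same pattern, of which 41 (17.4%) were listed and 195 were not, and 7.87% of all protein-coding symbols were listed. Of 26 subfamilies 21 had at least 1 listed gene. The teneurins (3 of 4), the FLRT genes (2 of 3) and the protocadherins outside the clusters (7 of 12) were listed most fully, while the semaphorins (2 of 20) and the Eph receptors (1 of 14) were mostly unlisted. An unlisted gene was either outside the tested features or had a larger p.

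**Figure D4:**
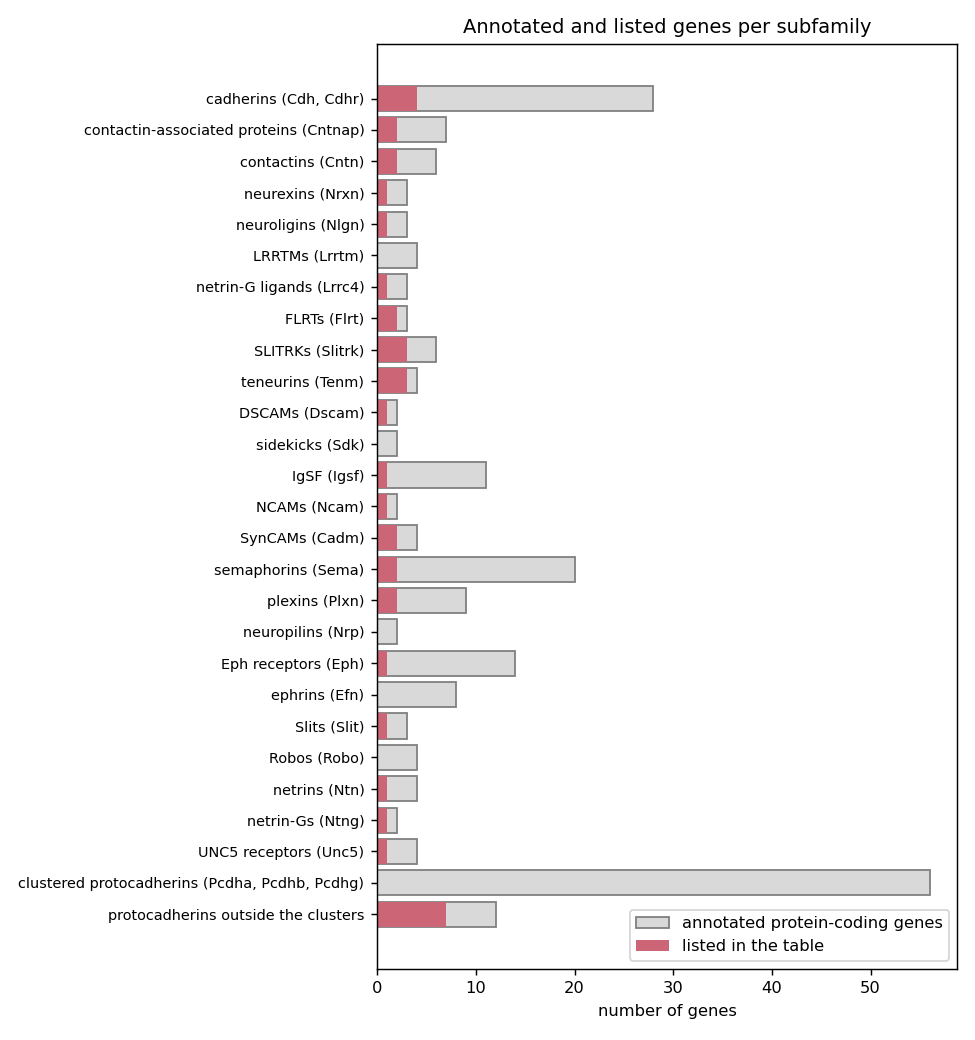
Grey bars give the number of annotated protein-coding genes per subfamily and red bars the number of these listed in the table. Neuropilins, ephrins, Robos, LRRTMs, sidekicks and the 56 clustered protocadherins have 0 listed genes.

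Partners outside these families were called higher about as often as listed genes in general. Of 110 other genes of adhesion, synapse organisation and guidance signalling that were looked for, 30 were listed, 22 of them called higher, 7 lower and 1 not called, with 0.0197 as the median log difference in the authors' deposited table. The share called higher, 73.3% of the 30, was near the 69.1% of all listed genes. The highest were Ptprf (0.0981), a receptor tyrosine phosphatase that binds synaptic adhesion proteins, Ntm (0.0592), a neuronal IgLON protein, Dpysl2 (0.0465), which relays semaphorin signals, and Nfasc (0.0411), neurofascin of the axon initial segment, in the authors' deposited table. The lowest called were Bsg (-0.0525), Lrrn3 (-0.00906), Lrit1 (-0.00741) and Islr2 (-0.00517) in the authors' deposited table. Bsg encodes basigin, which carries lactate transporters and is abundant in photoreceptors, and Lrit1 a synaptic protein of photoreceptors. For reelin signalling and the relay of guidance signals within cells, 18 genes were looked for and 4 were listed. These were Dab1, Reln, Dpysl2 and Dpysl3, picked out after their values were seen. All 4 were called higher, from 0.0195 to 0.0465 in the authors' deposited table, beside 69.1% of all listed genes. The largest list was more evenly split. Of its 39 synaptic organisers 9 were listed, 5 called higher and 4 called lower, and their median log difference was 0.00211. Reln encodes reelin, a secreted protein, and Dab1 the intracellular adaptor that relays its signal. The catenin gene Ctnnb1, which links cadherins to the cytoskeleton, was not called, with 0.0403 and an adjusted p of 0.166 in the authors' deposited table.

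Markers of several retinal cell types were called higher as well, and rod markers lower, as given beside Cdhr1. These counts stand beside 69.1% of all listed genes called higher and 24.1% called lower. All 6 cone markers were called higher (0.0678 to 0.173), as were all 3 listed amacrine markers (0.0674 to 0.109) in the authors' deposited table. Of 7 listed bipolar markers 6 were called higher and 1, Otx2, lower (-0.0264 to 0.125) in the authors' deposited table. Of 4 listed ganglion cell markers 3 were called higher and 1 lower (-0.0164 to 0.0249), and of 3 listed astrocyte markers 2 higher and 1 lower (-0.0288 to 0.0444) in the authors' deposited table. All 4 listed markers of Müller glia were called higher (0.0113 to 0.0801) in the authors' deposited table. Of 3 listed horizontal cell markers all were called higher (0.00534 to 0.0288), of 5 microglia markers 3 higher and 2 lower (-0.00387 to 0.0373), and of 4 endothelial markers 2 higher, 1 lower and 1 not called (-0.0125 to 0.0300) in the authors' deposited table. The part of cell makeup in the values of the adhesion and guidance genes was not tested. Abca1 itself was called higher in KO in the authors' deposited table (0.0294). Its values do not check the genotype labels, since the labels do not give the deleted part.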

How the data were processed

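Dissociated mouse retina was profiled in 3 WT and 5 KO droplet libraries. Per the submitters' processing notes, the authors worked on GRCm38 with Cell Ranger, DESeq2 and Seurat 3.1.4. The test, cell filters, treatment of doublets and way of integration were not given in the sources used here. The authors' deposited table gives, per gene, a log difference (read as a natural log, the convention of that Seurat version, since the header has no base), the fraction of cells above 0 in each group (printed as percent) and a raw and an adjusted p-value. KO is the entry of the cluster column throughout, and the first group was read as KO. The adjusted p-value in the deposited table is 2000 times the raw one, and the largest raw p is 0.00938, so 198 of 2000 features appear to be unlisted. If cells were the unit of replication, p-values would not measure the spread between libraries; the unit is not stated.

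Members were taken by a pattern on symbols, and calls, medians and shares were computed with Python 3.11.15 and pandas 2.3.3. The counting was tested on simulated data. No test was added. The members and lists were chosen with earlier results of these data known. The remarks on known partners were chosen after the values were seen. Every listed member is named, other pathway genes by the 4 highest and 4 lowest called plus Ctnnb1, Reln, Dab1 and Dpysl3, chosen after their values were seen. All 41 members matched 1 gene of GENCODE M21. Alternatives were another threshold, another adjustment, a minimum size, a minimum share, centring on the median gene and leaving out spelling matches.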

Additional observations from a re-analysis of the deposited data

How the results depend on the processing

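The number of genes called higher lay between 26 and 37 (35 of 41 as reported) over 6 alternatives, and the number called lower was 3 or 4 in 5 of the 6. Some alternatives could not move the counts. Leaving out the spelling match, itself called lower, left 40 genes and could not change the number called higher. The minimum share of 10% removed none of the 41 genes, whose smallest share was 14.6%, so it could change neither count. The minimum size of 0.01 and the centring each gave 26 higher (63.4%), against 45.9% of all listed genes. Benjamini-Hochberg adjustment over the listed genes gave 37 (90.2%), against 74.1%. That adjustment had to call every listed gene, since the largest raw p listed is 0.00938. Its counts therefore give only the sign of each log difference. Read against the median gene of the table, 13 (31.7%) were lower instead of 4, against 47.3% of all listed genes. The adjusted p was kept for this and does not test a difference from the median gene. By the construction of that centring, 9 genes called higher changed sign: Lrrc4c (-0.00922), Cntnap2 (-0.00884), Cdh9 (-0.00819), Pcdh11x (-0.00795), Tenm3 (-0.00723), Nlgn1 (-0.00656), Slitrk5 (-0.00485), Slitrk2 (-0.00451) and Igsf9 (-0.00119). The median of the 41 was 0.00846 above the median gene. Read against 0 it was 0.0185 for the 41 genes and 0.0189 without Lrrc40. At an adjusted p under 0.01, 1 gene (Cadm1) was no longer called. No paired analysis was possible because the table has no value per library, and for the same reason no library could be left out. Values per library, depth and numbers of cells, and with them any error, are unknown here.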
